A study of Mus musculus with 6 samples.

Results

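Unipolar brush cells, Golgi cells and the neurons of the cerebellar nuclei are rare neurons of the cerebellum, and 8 marker genes stood for them here. These were *Eomes*, *Lmx1a* and *Calb2* for unipolar brush cells, *Slc6a5* and *Lgi2* for Golgi cells, and *Slc17a6*, *Tbr1* and *Lhx9* for the cerebellar nuclei. The markers were taken by name, by a rule that holds no measured value, and all 8 were found among the 53715 genes of the deposited table. The libraries were RNA-Seq of the cerebellum from male mice at 4 weeks of age, labelled C57BL/6 (C57BL/6J in the study's methods), 3 of them controls and 3 *Slc39a8*-NSKO. In *Slc39a8*-NSKO mice, the synapsin I promoter drives Cre in neurons, and Cre removes both floxed alleles of *Slc39a8*, which encodes an importer of manganese, zinc and iron. The labels name the controls WT, whereas the study's methods name floxed mice without Cre as controls of this cross, and the files do not settle which were used. Synapsin I-Cre can act unevenly across brain regions, and whether it acted in the neurons described here was not measured in these files. In bulk tissue, fewer cells of a type and less RNA per cell cannot be told apart.

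Unipolar brush cells are excitatory interneurons of the granular layer and are densest in the lobules that serve balance. Each has a short dendrite that ends in a brush, receives a mossy fiber there, and passes the signal on to granule cells. Golgi cells are the inhibitory interneurons of the same layer and release glycine and GABA onto granule cells. The cerebellar nuclei lie below the cortex, receive the axons of Purkinje cells, and send the output of the cerebellum to the rest of the brain. Their excitatory neurons and the unipolar brush cells both descend from the rhombic lip, where the T-box factors Eomes and Tbr1 and the LIM homeodomain factors Lmx1a and Lhx9 mark young neurons.

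The genotypes did not differ past the threshold in any of the 8 markers. In edgeR's quasi-likelihood test with Benjamini-Hochberg adjustment over 16330 genes, 0 of the 8 had an adjusted p below 0.05, against 0.098% of all genes tested (0.0735% lower and 0.0245% higher in *Slc39a8*-NSKO mice). All 8 passed the filter on low counts. At an unadjusted p below 0.05 there was 1 marker, *Eomes*, against 5.39% of all genes. DESeq2 called 0 of the 8 and gave 0 with an unadjusted p below 0.05. The genotypes did not overlap in 1 of the 8 markers, *Calb2*, against 10.3% of all genes. The 4 lower and 4 higher markers had a median log2 fold change of 0.00, next to 0.0011 over all genes tested. Relative to genes of like level, the spread between mice of a genotype was widest for *Eomes* and for the transporter genes *Slc17a6* and *Slc6a5*.

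The counts on genes lay between 14431260 and 20844267 per mouse. The targeted gene *Slc39a8* was covered by 99, 46 and 44 counts in the controls (mice 1 to 3), against 38, 40 and 41 counts in the *Slc39a8*-NSKO mice. Its log2 fold change of −0.83 ± 0.238 (standard error) did not pass (edgeR, adjusted p = 0.534), although the genotypes did not overlap. Every pair of libraries differed by more than sampling noise (chi-square divided by its degrees of freedom, at least 4.01). Markers of the cerebellum were present throughout, as *Zic1* and *Cbln1* of granule cells and *Pcp2* of Purkinje cells each had at least 612 CPM in every mouse. Of 6 granule cell genes, 4 Purkinje cell genes, the cerebellar identity genes *En1* and *En2* and 3 genes of neurons at large, 0 passed, with median log2 fold changes of 0.01, 0.04, 0.15 and 0.06. At an unadjusted p below 0.05 in edgeR there were 0, 1, 1 and 2 of them, against 5.39% of all genes. Among these were *En2* (log2 fold change 0.25) and, in opposite directions, the neuronal genes *Rbfox3* (0.12) and *Snap25* (−0.13).

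**Figure D1:**
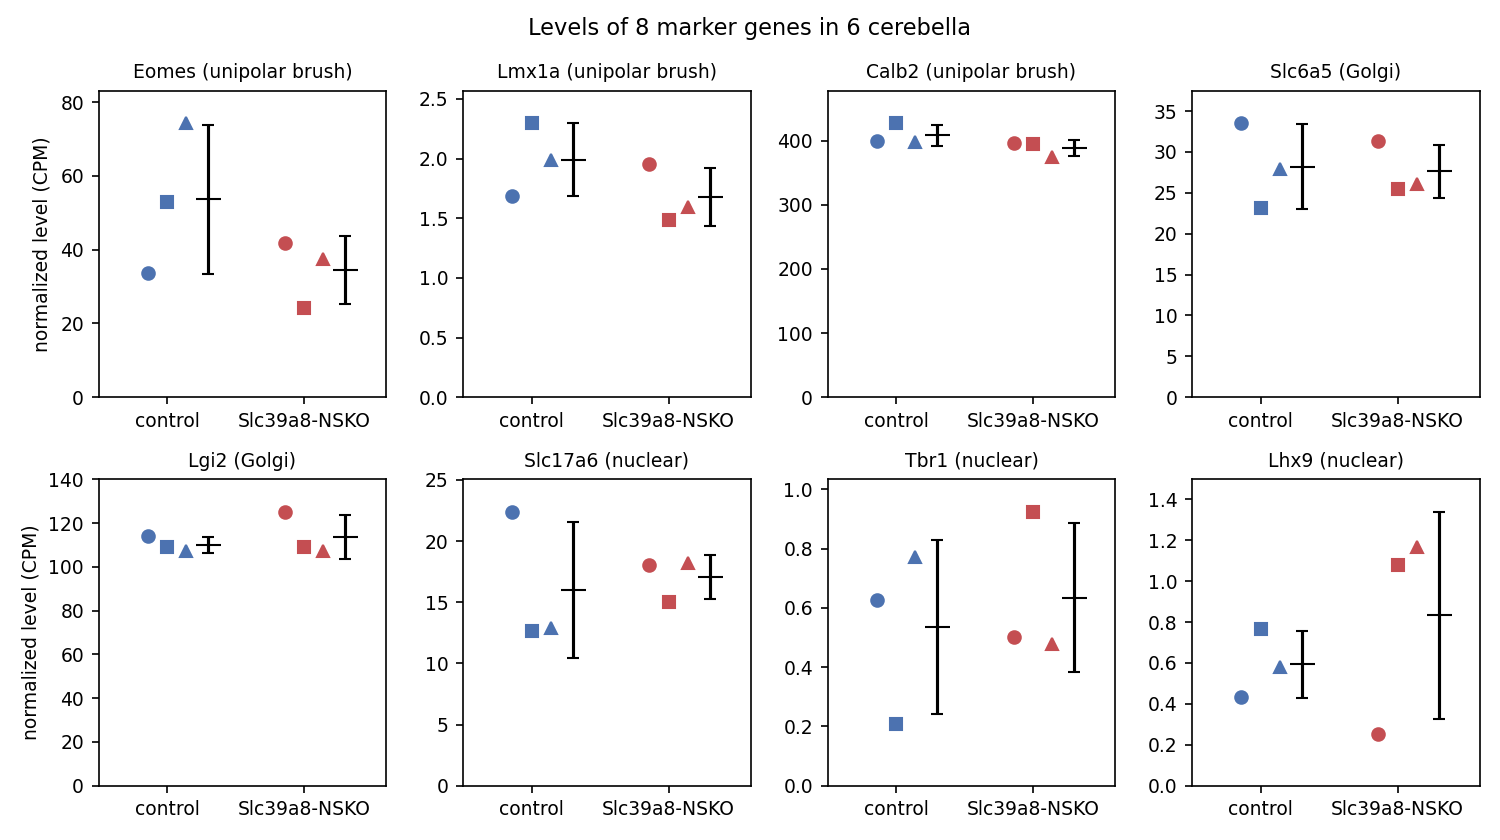
Normalized level in CPM (counts scaled to the TMM-normalized library size) of each marker, with axes from 0. Circles, squares and triangles are mice 1, 2 and 3 of a genotype (blue control, red *Slc39a8*-NSKO), and the black dash and bars are the mean and SD of 3 mice. The genotypes overlap in every panel except *Calb2*, where the lowest control (398 CPM) lies just above the highest *Slc39a8*-NSKO mouse (396 CPM).

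*Eomes* (ENSMUSG00000032446.14, chromosome 9 of GRCm38, 118478212 to 118486132, plus strand) encodes the T-box transcription factor Tbr2, whose protein stays on in adult unipolar brush cells. It had 33.8, 53.0 and 74.2 CPM in control mice 1 to 3 and 41.9, 24.1 and 37.4 CPM in *Slc39a8*-NSKO mice 1 to 3. Control mice 2 and 3 lay above every *Slc39a8*-NSKO mouse, and control mouse 1 lay below 2 of them. The highest mouse was 3.08 times the lowest. The means were 53.7 ± 20.2 CPM in control and 34.5 ± 9.22 CPM in *Slc39a8*-NSKO mice (SD, n = 3 each), and the log2 fold change was −0.63 (95% interval −1.12 to −0.14; edgeR, adjusted p = 0.857). An unadjusted p of 0.0163 put it at rank 309 of the genes tested. An exact two-sided permutation test gave p = 0.3, where 3 mice against 3 cannot give less than 0.1. Without control mouse 3, the highest, the log2 fold change was −0.32, and without control mouse 1 it was −0.89 (edgeR, adjusted p = 0.061).

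With 470 to 1155 counts per mouse, counting noise was a small part of the scatter of *Eomes*. Its counts within genotypes varied 94.7 times more than Poisson counting alone would give (chi-square per degree of freedom). Its within-genotype SD was 0.499 on the log2 scale, larger than that of 99.8% of the 5217 genes whose mean level lay within a factor of 2 of its own. The antisense gene Gm33460, whose exons overlap it, had at most 1 count in a mouse. When no filter on low counts was applied, *Eomes* passed with an adjusted p of 7.06e-13 in edgeR, the only one of 13 alternatives that called a marker. That fit gave every gene the dispersion of the trend, which for *Eomes* lowered the quasi-likelihood dispersion from 7.14 to 0.811.

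*Lmx1a* (chromosome 1, 167689237 to 167848741) encodes a LIM homeodomain factor of the roof plate and rhombic lip that unipolar brush cells keep. It had 29 to 39 counts per mouse, or 1.69, 2.30 and 1.99 CPM in control and 1.95, 1.49 and 1.59 CPM in *Slc39a8*-NSKO mice. The genotypes overlapped, and the scatter within them was no larger than counting noise (chi-square per degree of freedom of 0.75). The log2 fold change of −0.23 had a 95% interval from −0.80 to 0.33, so that a genotype difference was only loosely bounded.

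*Calb2* (chromosome 8, 110137502 to 110168210, minus strand) encodes calretinin, a calcium-binding protein of a class of unipolar brush cells that mouse granule cells also make. It had 399, 427 and 398 CPM in control and 396, 394 and 374 CPM in *Slc39a8*-NSKO mice. Every *Slc39a8*-NSKO mouse was lower than every control mouse, with the nearest mice at 398 and 396 CPM. The means were 408 ± 16.3 and 388 ± 12.1 CPM (SD, n = 3 each), and the log2 fold change was −0.07 (95% interval −0.18 to 0.04; edgeR, adjusted p = 0.994). In linear terms the interval ran from 88.1% to 103% of the control mean, so that *Calb2* and *Lgi2* were the most closely bounded of the 8 markers.

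The unipolar brush cell markers did not share a single order of mice. *Eomes* and *Lmx1a* were both lowest in *Slc39a8*-NSKO mouse 2, but *Eomes* was highest in control mouse 3 and *Lmx1a* in control mouse 2. As a description over 6 mice, Pearson's r of log2 CPM was 0.794 between them, and these values share libraries and their depths. *Calb2* spanned 1.14-fold from the lowest to the highest mouse, while *Eomes* spanned 3.08-fold. *Otx2*, a homeodomain factor of the posterior rhombic lip, had 11.5, 14.3 and 13.4 CPM in control and 13.4, 13.9 and 10.1 CPM in *Slc39a8*-NSKO mice, which overlapped.

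*Otx2* and *Lmx1a* are also genes of the choroid plexus lineage, so its markers were measured beside them. Of the 10 choroid plexus genes (*Otx2* included), 9 had positive log2 fold changes, 0 passed the threshold, and the median was 0.35. At an unadjusted p below 0.05 there were 4 of the 10, against 5.39% of all genes. *Folr1*, a folate receptor gene of this epithelium, had the lowest p, with 2.65, 2.36 and 1.99 CPM in the controls and 4.06, 5.80 and 3.88 CPM in the *Slc39a8*-NSKO mice, which did not overlap (log2 fold change 0.96; edgeR, adjusted p = 0.228). Their summed level ranged from 794 to 1143 CPM in control and from 929 to 1590 CPM in *Slc39a8*-NSKO mice, was highest in *Slc39a8*-NSKO mouse 2, and no marker of the list was at 0. *Lmx1a* was lowest in that mouse. The part of choroid plexus in the levels of *Lmx1a* and *Otx2* was not tested. *Eomes* is also a factor of cytotoxic lymphocytes, whose 5 markers (*Cd3e*, *Cd8a*, *Ncr1*, *Nkg7* and *Klrb1c*) summed to at most 0.584 CPM in a mouse.

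**Figure D2:**
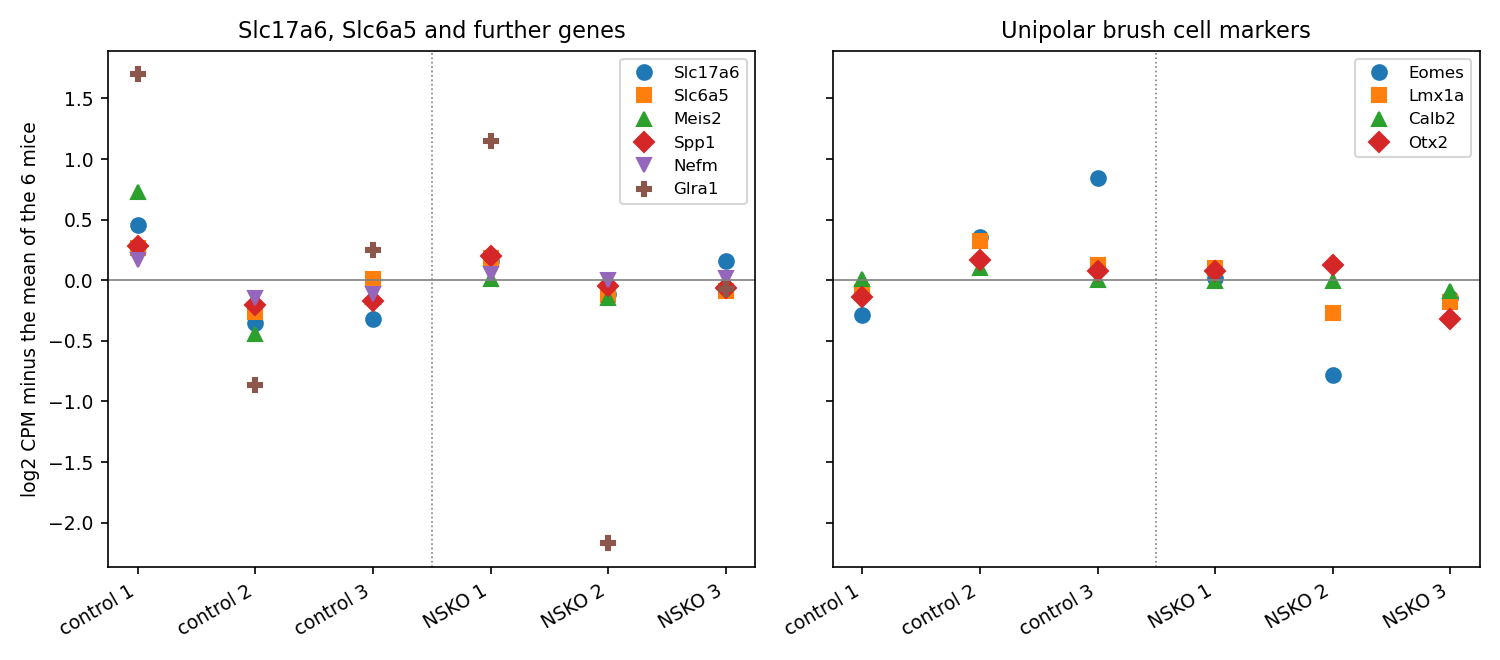
Each point is the log2 CPM of a gene in a mouse minus the mean over the 6 mice, with the dotted line between 3 control and 3 *Slc39a8*-NSKO mice. In the left panel control mouse 1 has the highest value of every gene shown and *Slc39a8*-NSKO mouse 1 lies at or above 0. Of these genes, *Meis2*, *Spp1* and *Glra1* were chosen after their values were seen. The markers *Lgi2*, *Tbr1* and *Lhx9*, not shown, were highest in *Slc39a8*-NSKO mice 1, 2 and 3. In the right panel *Eomes* runs from −0.78 in *Slc39a8*-NSKO mouse 2 to 0.84 in control mouse 3 while *Calb2* stays between −0.09 and 0.10.

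*Slc6a5* (ENSMUSG00000039728.15, chromosome 7, 49910146 to 49963856, plus strand) encodes the neuronal glycine transporter GlyT2, which reloads glycinergic terminals and marks Golgi cells and the glycinergic neurons of the nuclei and brainstem. It had 694, 332 and 435 counts in the controls, against 626, 497 and 490 counts in *Slc39a8*-NSKO mice, or 33.5, 23.1 and 28.0 CPM against 31.3, 25.5 and 26.0 CPM. Mouse 1 of each genotype was its highest, and the *Slc39a8*-NSKO values lay inside the range of the controls. The means were 28.2 ± 5.21 and 27.6 ± 3.22 CPM (SD, n = 3 each). The log2 fold change was −0.04 (95% interval −0.29 to 0.22; edgeR, adjusted p = 0.994). Without control mouse 1 it was 0.11.

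*Lgi2* (chromosome 5, 52533517 to 52566462, minus strand) encodes a secreted leucine-rich repeat protein that binds ADAM receptors at synapses and is a marker of Golgi cells. It had 114, 109 and 107 CPM in control and 125, 109 and 107 CPM in *Slc39a8*-NSKO mice. Apart from *Slc39a8*-NSKO mouse 1, the mice lay between 107 and 114 CPM, and the genotypes overlapped. The log2 fold change of 0.05 had a 95% interval from −0.09 to 0.19, or 93.7% to 114% of the control mean. Its relatives *Lgi1*, *Lgi3* and *Lgi4* and the receptor genes *Adam11*, *Adam22* and *Adam23* had log2 fold changes between −0.08 and 0.09, and 0 of these 6 passed the threshold.

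Further genes of Golgi cells and of glycinergic transmission gave no gene past the threshold. Of the 8 Golgi genes (*Grm2*, *Nrgn*, *Slc32a1*, *Gad1*, *Gad2*, *Chrm2*, *Pax2* and *Sst*), 5 had positive and 3 negative log2 fold changes, with a median of 0.08. Most are shared with other inhibitory neurons. *Nrgn*, which encodes the calmodulin-binding protein neurogranin, had the lowest p of these and stood high in 1 mouse, with 10.6 CPM in *Slc39a8*-NSKO mouse 3 and 2.38 to 4.80 CPM in the other 5 mice. *Slc32a1*, the vesicular transporter that loads both glycine and GABA, had a log2 fold change of 0.04 (95% interval −0.07 to 0.16). The glial glycine transporter gene *Slc6a9* had 125 ± 6.75 CPM in control and 130 ± 7.52 CPM in *Slc39a8*-NSKO mice (SD, n = 3 each), and reads of overlapping genes could be divided with it. Of the 7 genes of glycinergic transmission, 6 could be tested, with 3 positive and 3 negative log2 fold changes and a median of 0.01.

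*Slc17a6* (ENSMUSG00000030500.6, chromosome 7, 51622006 to 51671119, plus strand) encodes the vesicular glutamate transporter VGLUT2 of the excitatory nuclear neurons. It had 464, 182 and 201 counts in the controls, against 361, 292 and 342 counts in *Slc39a8*-NSKO mice. In CPM these were 22.4, 12.7 and 12.9 against 18.1, 15.0 and 18.2. Control mouse 1 was the highest of the 6 mice and control mice 2 and 3 the lowest, so that the *Slc39a8*-NSKO mice fell between them. The means were 16.0 ± 5.55 and 17.1 ± 1.81 CPM (SD, n = 3 each), with a log2 fold change of 0.07 (95% interval −0.31 to 0.46; edgeR, adjusted p = 0.994). Control mouse 1 decided this value, since without it the log2 fold change was 0.42, still short of the threshold (edgeR's quasi-likelihood test, adjusted p = 0.318).

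VGLUT1, encoded by *Slc17a7*, is the transporter of granule cells, and the ratio of both genes within a library does not depend on its depth. Per kilobase of exon, *Slc17a6* made up 3.57%, 2.04% and 2.18% of the sum of both in the controls, against 2.88%, 2.56% and 2.98% in *Slc39a8*-NSKO mice. The means of 2.6% ± 0.845 and 2.81% ± 0.215 (SD, n = 3 each) differed by less than the spread between control mice (exact two-sided permutation test, p = 0.8). *Slc17a7* itself had a log2 fold change of −0.02 and spanned 569 to 610 CPM. *Slc17a8*, the remaining member of this family, had at most 2 counts in a mouse.

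*Tbr1* and *Lhx9*, the transcription factors of nuclear neurons, were near the limit of detection at this age. *Tbr1* (chromosome 2, 61802930 to 61814114) had 13, 3 and 12 counts in the controls, against 10, 18 and 9 counts in *Slc39a8*-NSKO mice. *Lhx9* (chromosome 1, 138825186 to 138848577, minus strand) had 9, 11 and 9 counts in the controls, against 5, 21 and 22 counts in *Slc39a8*-NSKO mice. *Slc39a8*-NSKO mouse 1 had the fewest counts of *Lhx9* and the other mice of that genotype the most, so that the genotypes overlapped, as they did for *Tbr1*. The log2 fold changes were 0.21 (95% interval −0.84 to 1.27) and 0.51 (95% interval −0.60 to 1.63). A rise to 242% of control for *Tbr1* or to 310% for *Lhx9* remained inside these intervals, so their levels bound the nuclei only loosely. Both missed a filter of at least 10 counts in every mouse, which left 6 of the 8 markers, of which 0 passed.

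Of 6 further genes of nuclear neurons (*Lhx2*, *Meis1*, *Meis2*, *Nefh*, *Nefm* and *Spp1*), 5 could be tested and 0 passed, with a median log2 fold change of 0.04. *Lhx2*, a relative of *Lhx9*, had at most 9 counts in a mouse, and of the further LIM genes tested *Lhx1* and *Lhx5* had log2 fold changes of −0.10 and 0.08. *Nefh* and *Nefm* encode neurofilament subunits of large neurons, Purkinje cells among them, and the counts of *Nefm* can be divided with the overlapping gene *Nefl*. *Spp1*, which encodes osteopontin, had 33.8, 24.1 and 24.6 CPM in control and 32.0, 26.7 and 26.6 CPM in *Slc39a8*-NSKO mice. *Meis2*, a homeodomain factor of the nuclei, had 7.14, 3.13 and 3.86 CPM in control and 4.31, 3.85 and 4.25 CPM in *Slc39a8*-NSKO mice. Both were highest in control mouse 1 and lowest in control mouse 2, as *Slc17a6* and *Slc6a5* were.

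**Figure D3:**
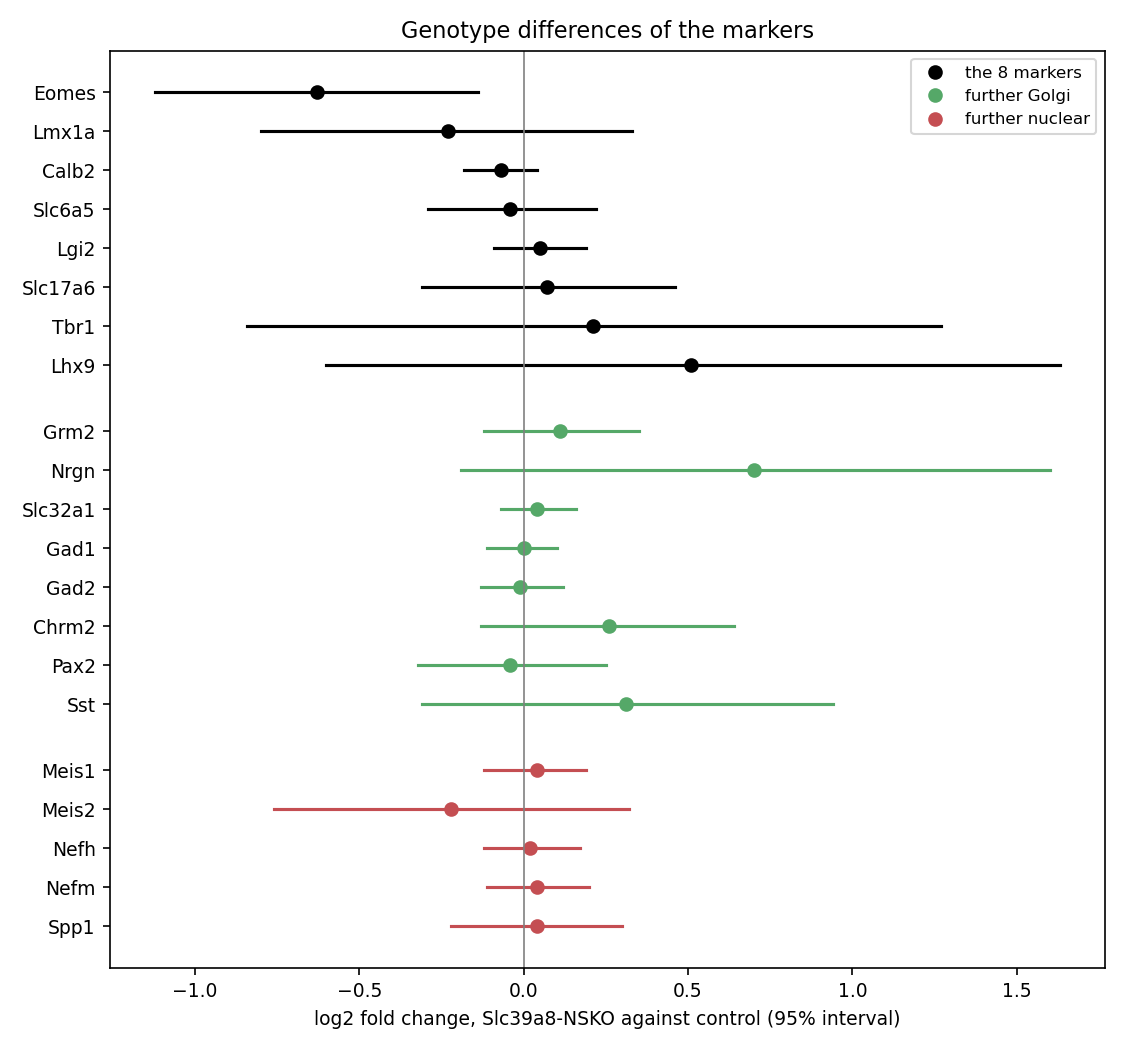
Log2 fold change (*Slc39a8*-NSKO against control, from edgeR) with its 95% interval for the 8 markers (black) and for the tested further genes of Golgi cells (green) and nuclear neurons (red). Of the 8 markers only the interval of *Eomes* leaves out 0, and the intervals of *Tbr1* and *Lhx9* are the widest.

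The 2 transporter genes varied together across mice, with control mouse 1 highest and control mouse 2 lowest in both. Over the 6 mice, Pearson's r of log2 CPM was 0.762 between *Slc17a6* and *Slc6a5*, 0.891 between *Slc17a6* and *Meis2*, 0.899 with *Spp1* and 0.971 with *Nefm*, as a description of points that share libraries. Without control mouse 1 these were 0.542, 0.838, 0.799 and 0.94. *Meis2* and *Spp1* were named after their values were seen. With *Nefh* and the nuclear markers *Tbr1* and *Lhx9*, the r of *Slc17a6* was 0.798, 0.204 and −0.329. Without control mouse 1 it was 0.574, 0.144 and −0.145, so the nuclear markers did not all vary with *Slc17a6*. The within-genotype SD of *Slc17a6* was 0.346 on the log2 scale, above that of 98.9% of the genes within a factor of 2 of its mean level, and that of *Slc6a5* was 0.221, above 97.4%. *Lgi2*, the other Golgi marker, was at 73.3% on the same measure, and *Calb2* at 36.6%. The 2 markers of Golgi cells, *Slc6a5* and *Lgi2*, were each highest in mouse 1 within both genotypes.

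*Slc17a6* and *Slc6a5* are also abundant in the brainstem, and the markers of that tissue were therefore measured. The glycine receptor gene *Glra1*, which is typical of brainstem and spinal cord and also present in the nuclei, had 62, 6 and 16 counts in the controls, against 40, 2 and 15 counts in *Slc39a8*-NSKO mice. It was highest in control mouse 1 and next in *Slc39a8*-NSKO mouse 1, as was *Slc6a5*. The 15 Hox genes of the hindbrain behind the cerebellum summed to 1.30, 0.695 and 1.09 CPM in control and 1.25, 0.513 and 0.478 CPM in *Slc39a8*-NSKO mice, and were also highest in mouse 1 of each genotype. Each Hox gene had at most 9.63 counts in a mouse, and *Hoxb6* and *Hoxb8* were at 0 in all mice. Of the 18 markers of cholinergic, monoaminergic and related brainstem and midbrain neurons, 4 could be tested, 0 passed, and the sum ranged from 15.2 to 16.3 CPM in control and from 15.8 to 18.6 CPM in *Slc39a8*-NSKO mice. *Th*, *Gata2* and *Slc18a2* made up most of it, while *Isl1* was at 0 in all mice and *Chat* had at most 1 count. In CPM, *Th* was highest in control mouse 2, *Gata2* in *Slc39a8*-NSKO mouse 3 and *Slc18a2* in *Slc39a8*-NSKO mouse 2. The remaining tested gene, *Tph2*, had 24, 8 and 10 counts in the controls, against 15, 6 and 11 in the *Slc39a8*-NSKO mice. Like *Glra1*, *Tph2* was highest in control mouse 1 and next in *Slc39a8*-NSKO mouse 1. Of the 4 tested genes of this list, 1 did not overlap between genotypes (*Gata2*, higher in *Slc39a8*-NSKO mice), against 10.3% of all genes tested. The noradrenergic genes *Dbh* and *Slc6a2*, picked after their values were seen, were below the filter on low counts and were not tested. Neither overlapped between genotypes, but no share of non-overlapping genes was computed for genes with so few counts. *Dbh*, which encodes the enzyme that makes noradrenaline, had 2, 2 and 0 counts in the controls, against 10, 8 and 20 in the *Slc39a8*-NSKO mice. *Slc6a2*, the noradrenaline transporter gene, had 2, 3 and 2 counts in the controls, against 7, 8 and 12 in the *Slc39a8*-NSKO mice. The part of attached brainstem in the levels of *Slc17a6* and *Slc6a5* was not tested.

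*Tbr1* is a defining factor of the cerebral cortex as well, and of 9 forebrain genes *Fezf2* was at 0 in all mice and *Emx2* had at most 1 count. The sum of this list, 265 to 282 CPM in control and 266 to 305 CPM in *Slc39a8*-NSKO mice, was almost all *Ppp1r1b*, which Purkinje cells express too. *Neurod6* had 6.26 to 7.90 CPM in control and 4.71 to 5.63 CPM in *Slc39a8*-NSKO mice. These did not overlap, and the log2 fold change of −0.47 did not pass (edgeR, adjusted p = 0.678). The part of forebrain tissue in the level of *Tbr1* was not tested.

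**Figure D4:**
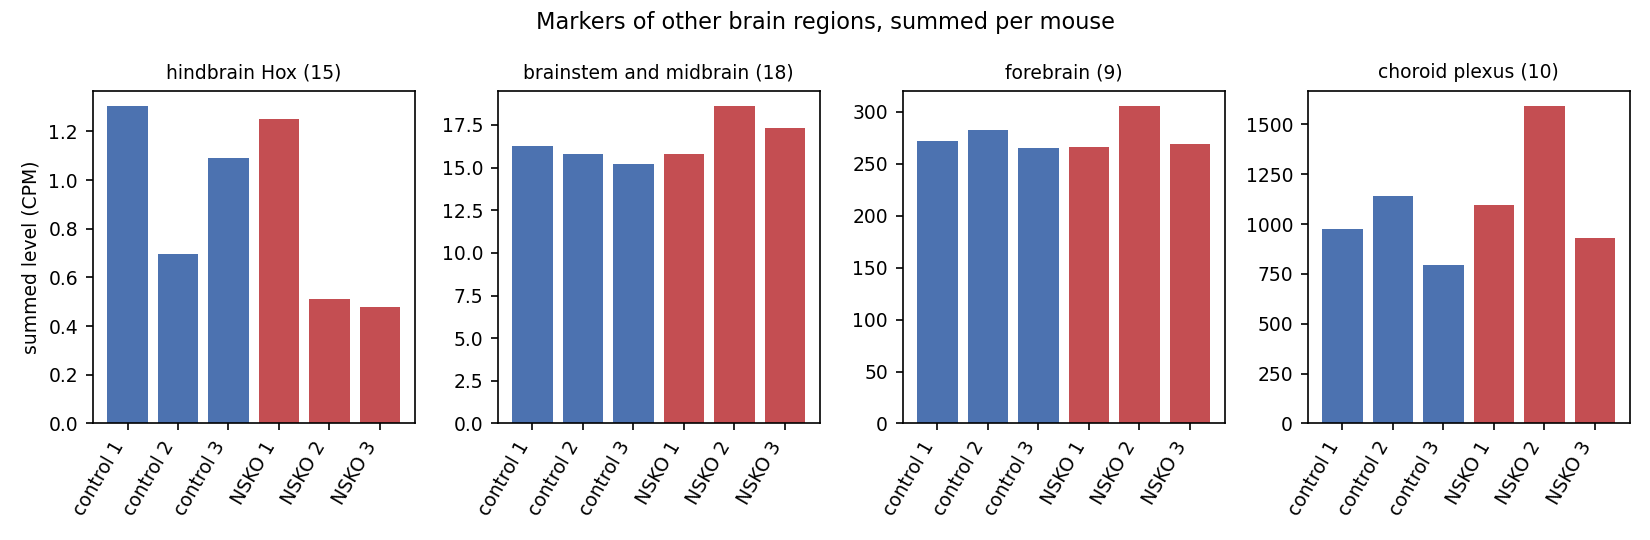
Summed CPM per mouse of marker genes of other regions (blue control, red *Slc39a8*-NSKO, axes from 0, number of genes in parentheses). Hox genes sum to at most 1.30 CPM and are highest in control mouse 1 and *Slc39a8*-NSKO mouse 1, and choroid plexus genes are highest in *Slc39a8*-NSKO mouse 2 at 1590 CPM.

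Between genes, levels were compared as CPM per kilobase of exon over the 6 mice. *Calb2* was the highest marker at 228 (range 215 to 245), close to its relative *Calb1* of Purkinje cells at 222 and below *Pvalb* at 845. *Lgi2* followed at 17.2 (16.4 to 19.2), then *Eomes* at 10.6 (5.81 to 17.9), *Slc6a5* at 3.87 (3.21 to 4.65) and *Slc17a6* at 3.06 (2.34 to 4.15). *Lmx1a* was at 0.54 (0.438 to 0.676), *Tbr1* at 0.107 (0.038 to 0.169) and *Lhx9* at 0.075 (0.0264 to 0.123). The ranges of *Lgi2* and *Eomes*, of *Slc6a5* and *Slc17a6*, and of *Tbr1* and *Lhx9* overlapped between mice. Within each of the 6 mice, however, *Slc6a5* was above *Slc17a6*. *Lgi2* was above *Eomes* in every mouse except control mouse 3, and *Tbr1* was above *Lhx9* except in control mouse 2 and *Slc39a8*-NSKO mouse 3. The T-box gene *Tbx21*, the closest relative of *Eomes* and *Tbr1*, had at most 1 count in a mouse. Of these T-box genes *Eomes* had the highest level per length in every mouse.

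**Figure D5:**
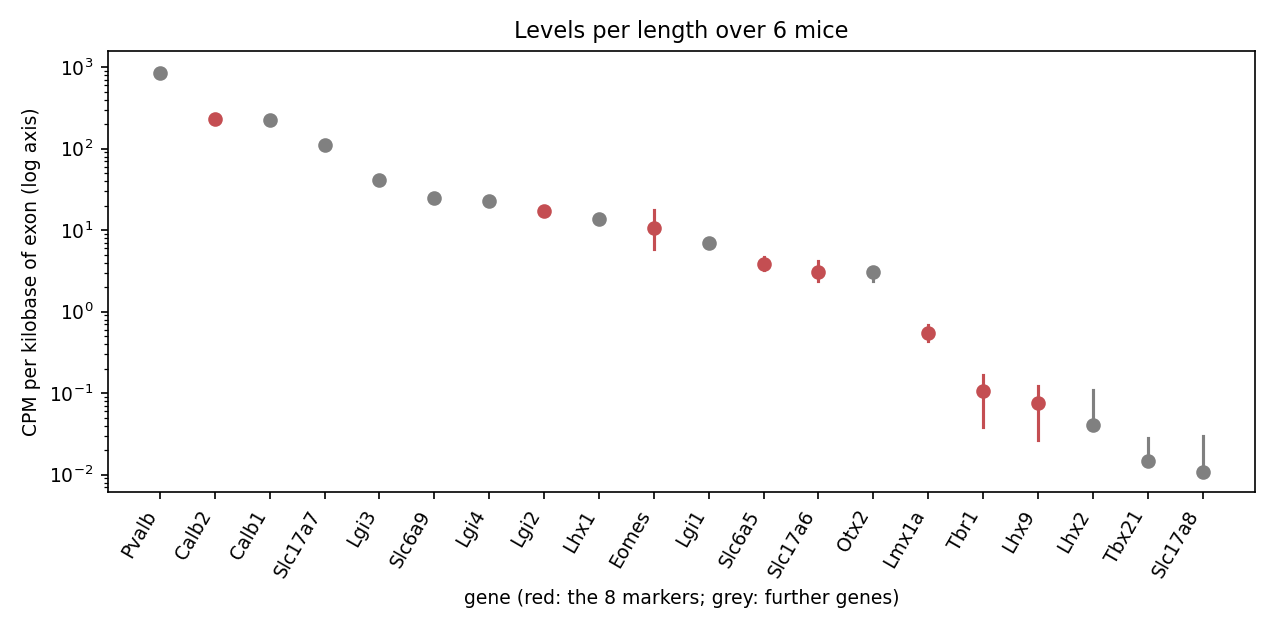
Mean CPM per kilobase of exon (log axis) over the 6 mice, with lines from the lowest to the highest mouse, for the 8 markers (red) and further genes (grey). For genes with a mouse at 0 the line shows only the part above the mean. The markers run from 228 for *Calb2* to 0.075 for *Lhx9*.

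The genes whose log2 CPM followed a marker most closely over the 6 mice were taken by rank of Pearson's r among all genes tested. For *Eomes* these were Gm47477 (0.993), Gm49204 (0.993) and *Zfp612* (0.992), for *Slc6a5* they were *Zfp518b* (0.992), Gm40578 (0.991) and *Mtmr6* (0.99), and for *Slc17a6* they were *Mreg* (0.993), *Ttll1* (0.99) and *Sept6* (0.989). With 6 mice, 131, 283 and 203 genes had an r above 0.9 with *Eomes*, *Slc6a5* and *Slc17a6*. These are descriptions of the same 6 libraries.

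Promoter windows were read for the genes on which these results turn, from 250 bases before to 50 after a RefSeq start on GRCm38.p6, and 7 of the 8 markers had 1 or 2 windows. Capitals mark TGACG, the core of a cAMP response element, and TAATTA, the core that homeodomain proteins bind, each searched on both strands. The windows shown are those of *Slc6a5* and *Slc17a6*, which varied together, and of the T-box pair *Tbr1* and *Eomes*. They are *Slc6a5* at chr7:49910049-49910348, *Slc17a6* at chr7:51624387-51624686 (the second of 2 starts), *Tbr1* at chr2:61804203-61804502 and *Eomes* at chr9:118477939-118478238, all on the plus strand.
Slc6a5: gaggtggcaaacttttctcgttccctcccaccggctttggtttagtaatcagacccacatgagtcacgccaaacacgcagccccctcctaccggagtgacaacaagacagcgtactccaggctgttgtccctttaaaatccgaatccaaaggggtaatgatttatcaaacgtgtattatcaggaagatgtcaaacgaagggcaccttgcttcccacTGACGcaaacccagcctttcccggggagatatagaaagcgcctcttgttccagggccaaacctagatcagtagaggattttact
Slc17a6: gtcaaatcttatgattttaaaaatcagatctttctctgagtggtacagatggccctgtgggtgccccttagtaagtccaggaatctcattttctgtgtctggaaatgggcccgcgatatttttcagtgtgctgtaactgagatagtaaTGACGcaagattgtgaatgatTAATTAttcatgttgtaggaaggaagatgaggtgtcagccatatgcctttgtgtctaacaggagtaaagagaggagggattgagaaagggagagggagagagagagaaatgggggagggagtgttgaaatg
Tbr1: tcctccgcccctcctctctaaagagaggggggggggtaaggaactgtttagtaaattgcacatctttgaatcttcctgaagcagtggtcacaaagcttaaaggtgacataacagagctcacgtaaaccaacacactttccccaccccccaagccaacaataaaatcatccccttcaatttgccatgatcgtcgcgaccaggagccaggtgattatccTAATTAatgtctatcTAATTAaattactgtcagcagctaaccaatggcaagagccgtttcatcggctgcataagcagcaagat
Eomes: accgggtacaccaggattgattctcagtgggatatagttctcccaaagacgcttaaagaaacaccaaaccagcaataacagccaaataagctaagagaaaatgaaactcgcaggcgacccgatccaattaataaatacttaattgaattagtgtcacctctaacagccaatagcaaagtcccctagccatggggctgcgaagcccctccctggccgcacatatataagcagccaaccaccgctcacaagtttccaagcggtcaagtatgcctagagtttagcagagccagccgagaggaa
TGACG begins 34 bases before the start in *Slc6a5* and 102 before it in *Slc17a6*. The other window of each of these genes is not shown and holds neither TGACG nor TAATTA. Of the 32851 promoter windows of the genome, 20.8% hold TGACG on either strand. TAATTA begins 81 bases before the start in *Slc17a6* and 33 and 18 before it in *Tbr1*, and 5.29% of all windows hold it. The full element TGACGTCA, which contains TGACG and is in 1.79% of windows, was in none of the 9 windows of the markers. Nor were the T-box half-site GGTGTGA (3.98%) and TATAAA (13.6%), a form of the TATA box. Only these exact letters were searched. Other forms of these elements, such as the tatataa in the window of *Eomes*, were not counted. A match describes letters in the window and no binding was measured.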

How the data were processed

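RNA-Seq was performed by the authors on 1 cerebellum per mouse, with oligo-dT cDNA, paired-end Illumina reads and alignment with STAR to an Ensembl reference. The submitters' processing notes also name RSEM, DESeq2 and the build mm10. The labels name a directional library kit and the methods the kit without that word, and the strand setting of the counting is not given in the sources used here. The authors deposited expected counts per gene and mouse, not normalized for library size or gene length. The 92 spike-in entries, with at most 5 counts in a mouse, were left out.

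Counts were rounded and tested in R 4.3.3 with edgeR 4.0.16 (TMM, filterByExpr, glmQLFit, glmQLFTest), Benjamini-Hochberg adjustment over 16330 genes and a threshold of 0.05. Standard errors and 95% intervals come from the F statistic. Alternatives were DESeq2 1.42.0, limma-voom (limma 3.58.1), other normalizations and filters, a replicate block, and each mouse left out. The fits were tested on simulated data. Names, positions and exon lengths are from GENCODE M21 (GRCm38), which named 53620 of 53715 genes. Total counts were 14431260 to 20844267 per mouse. Chi-square per degree of freedom within genotypes was 0.75 for *Lmx1a*, 2.12 for *Tbr1* and 3.46 for *Lhx9*, and higher for the other markers. These values were set against counting noise without a test. The markers and the further lists were chosen with earlier results of these data known. Named genes were the markers, members of these lists with the lowest p, the highest level or 0 counts, and the 3 genes most like *Eomes*, *Slc6a5* and *Slc17a6*. *Meis2*, *Spp1*, *Glra1*, *Dbh*, *Slc6a2*, *Tph2*, *Rbfox3*, *Neurod6*, *Otx2*, *Slc32a1* and *Slc6a9* were named from the lists after their values were seen. Some genes of the lists are not reported here.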

Additional observations from a re-analysis of the deposited data

How the results depend on the processing

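Of 102 log2 fold changes of single markers under the alternatives, 93 kept their direction and their side of the threshold. With no filter on low counts, *Eomes* passed (log2 fold change −0.62, adjusted p = 7.06e-13 from edgeR), so that the number of markers past the threshold went from 0 to 1; that fit took the trended dispersion for every gene. It was 0 under every other alternative. Direction reversed, always short of the threshold, for *Slc6a5* without control mouse 1 (0.11), *Slc39a8*-NSKO mouse 2 (0.02) and mouse 3 (0.00), *Lgi2* without *Slc39a8*-NSKO mouse 1 (−0.03), *Slc17a6* without control mouse 2 (−0.07) and 3 (−0.06), and *Tbr1* without control mouse 2 (−0.13) and *Slc39a8*-NSKO mouse 2 (−0.16). With each mouse left out, the ranges were −0.89 to −0.32 for *Eomes*, −0.36 to −0.12 for *Lmx1a*, −0.09 to −0.04 for *Calb2*, −0.16 to 0.11 for *Slc6a5*, −0.03 to 0.09 for *Lgi2*, −0.07 to 0.42 for *Slc17a6*, −0.16 to 0.51 for *Tbr1* and 0.19 to 0.95 for *Lhx9*. The difference in the share of *Slc17a6*, 0.209 percentage points, ranged from −0.068 without control mouse 2 to 0.695 without control mouse 1, and was −0.001 without control mouse 3. Over all genes, 16 passed, against 37 with DESeq2, 178 with no filter, and from 9 without *Slc39a8*-NSKO mouse 2 to 38 without control mouse 1. Whether the replicate numbers pair the mice could not be told from these values. Same-numbered mice had correlations of deviations of 0.142, 0.116 and 0.01. Those between differently numbered mice of the 2 genotypes ran from −0.177 to 0.067. Of the 6 mice, 4 correlated best with their own number. With the replicate block 41 genes passed, against 16 without it, and 0 markers passed. Depth limits *Lmx1a*, *Tbr1* and *Lhx9*, with at most 39 counts in a mouse.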
